A study of Mus musculus with 8 samples.

Results

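The forkhead genes encode transcription factors that share the winged-helix DNA-binding domain. They were taken as every row of the authors' deposited gene table whose symbol is Fox followed by a class letter from a to s and a number, which gave 36 genes of 17441. The table compares primary embryonic fibroblasts of Cbx2 knockout mice (Cbx2-/-, 2 RNA libraries) with those of wild-type littermates (2 RNA libraries). All cells came from embryos of day 18, were grown for 2 passages with no treatment named in the labels, and each library used 200000 cells and about 4.62 Gb of sequence. The labels leave unsaid if separate embryos were used for the libraries, so that p-values measure only the spread between these libraries, which may be technical. Chromatin accessibility was also profiled in these cells and is not analysed here.

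Forkhead proteins bind short DNA motifs rich in A and T, and single classes have well separated jobs. Foxc, Foxd, Foxf and Foxl genes pattern embryonic mesenchyme, Foxo proteins are held in the cytoplasm by insulin and growth factor signalling, Foxm1 drives genes of mitosis, and others define lineages such as endoderm, thymus epithelium or regulatory T cells. The chromodomain protein Cbx2 belongs to polycomb repressive complex 1, which keeps developmental genes silent, and many developmental forkhead genes lie in CpG-rich DNA of the kind that polycomb complexes occupy in embryonic cells. The comparison asks how transcripts of this family differ in fibroblasts without Cbx2.

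The deposited table has 1 value per genotype. The mean of both values is made of whole reads, each divided by the size factor of its library. From that mean, and for 10709 genes also the deposited fold change and p, the reads of each library could be recovered. This held for 17070 genes, all 36 forkhead genes among them. The recovered reads are given as normalised reads, that is, reads over the size factor of the library. Recovered reads came to 12351112 and 12348272 in the knockout libraries and 12180731 and 11380336 in the wild-type libraries, without the most abundant genes. The libraries of a genotype are called A and B, since their order in the labels could not be tied to the values. Cbx2 itself checked the labels: it had 26.1 and 24.2 normalised reads in the knockout libraries, against 321.7 and 379.5 in the wild-type libraries (log2 fold change -3.77, SE 0.16, limma adjusted p = 3.93e-29).

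Fibroblast markers were abundant in both genotypes, and transcripts known from other cell types were also read. Of 13 fibroblast markers, 1 rose (Thy1) and 9 fell in the authors' deposited table. Deposited values of all 13 summed to 650172 in knockout, against 720984 in wild type. Reads per library were recovered for 7 of them, but not for Col1a1, Col1a2, Col3a1, Vim, Fn1 and Thy1. Those 7 summed to 18170 and 18266 normalised reads in the knockout libraries, against 27502 and 28179 in the wild-type libraries. Of 17 macrophage markers, 9 rose, with sums of 2072 and 2040 normalised reads in the knockout libraries, against 626 and 723 in the wild-type libraries. Of 10 epithelial markers in the table, Krt8 and Krt18 fell, and Epcam and Cdh1 had at most 4 reads in any library. Of 11 endothelial markers, Cdh5 and Esam rose and Flt1 fell, while Pecam1 had 1 to 3 reads in each library. In bulk RNA, fewer cells of a type and less RNA per cell cannot be told apart, and the part of these markers in the changes of forkhead genes was not tested.

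Loss of Cbx2 went with higher transcripts of a group of mesenchymal forkhead genes and of Foxo1, a small decrease of Foxk2, and little change in most of the abundant, broadly expressed classes. In the authors' deposited DESeq2 comparison, 6 of 36 forkhead genes (16.7%) passed an adjusted p of 0.05, against 7.78% of all 17441 genes. Those that rose were Foxd1, Foxc2, Foxc1, Foxl1 and Foxo1, 5 of 36 against 3.48% of all genes, and the 1 that fell was Foxk2, against 4.30% of all genes. With limma on log2(normalised reads + 0.5) over all 17070 recovered genes, 10 of 36 forkhead genes (27.8%) passed an adjusted p of 0.05, against 18.1% of all genes. Foxd2 and Foxp2 joined those that rose, giving 7 (9.11% of all genes rose), and Foxf2 and Foxq1 joined Foxk2 among those that fell, giving 3 (8.95% of all genes fell). Both tests rest on the same reads. They differ in the spread: the standard error of the Foxc2 log2 fold change was 0.06 by limma, against 0.09 as implied by the p of the authors' deposited table. With a spread of 10 percent added to the deposited errors, 1 of the 6 deposited calls was left, that of Foxd1. In 22 of 36 genes the libraries of the genotypes did not overlap, against 51.7% of all recovered genes. The median deposited log2 fold change was 0.10 over the 36 genes and 0.0036 over all genes.

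**Figure D1:**
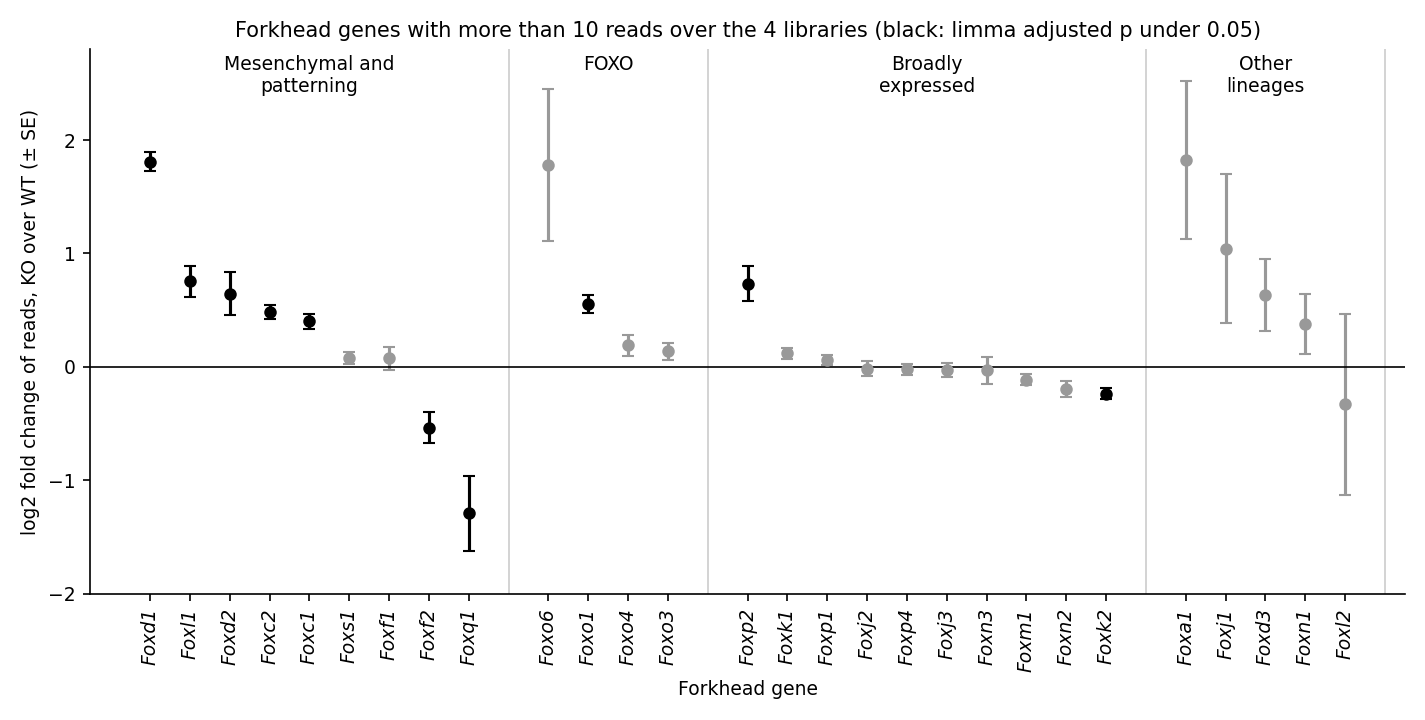
Log2 fold change of normalised reads (knockout over wild type, vertical axis) with its standard error from limma for 28 forkhead genes with more than 10 reads over the 4 libraries, grouped by role along the horizontal axis. Black points passed an adjusted p of 0.05; Foxd1 stands highest among the genes that passed, at 1.81 with a small error, and the wide bars belong to genes with few reads such as Foxa1 and Foxo6.

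The starts of 4 of the genes that changed are shown because their upstream DNA differs widely in CpG content. Sequence before RefSeq start sites (GRCm38.p6) was at hand for 21 of the 36 genes, and not for Foxc2, Foxl1, Foxp2 and Foxq1 among those called. The 250 bases before the start are printed 5′ to 3′ on the plus strand, with every CG dinucleotide in capitals. The windows lie at chr13:98353995-98354244 (Foxd1), chr13:31806396-31806645 (Foxc1), chr3:52268087-52268336 (Foxo1) and chr11:121259737-121259986 (Foxk2).
Foxd1: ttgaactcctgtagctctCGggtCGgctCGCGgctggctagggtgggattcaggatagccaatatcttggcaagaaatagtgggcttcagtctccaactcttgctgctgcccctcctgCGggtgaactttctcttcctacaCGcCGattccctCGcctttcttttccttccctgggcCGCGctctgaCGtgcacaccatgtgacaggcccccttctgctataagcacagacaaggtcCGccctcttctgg
Foxc1: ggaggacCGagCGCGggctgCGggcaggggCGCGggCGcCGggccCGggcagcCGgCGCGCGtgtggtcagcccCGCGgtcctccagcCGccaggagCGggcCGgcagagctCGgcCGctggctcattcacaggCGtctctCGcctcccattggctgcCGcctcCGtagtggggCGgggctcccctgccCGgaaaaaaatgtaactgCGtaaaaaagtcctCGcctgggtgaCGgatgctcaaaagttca
Foxo1: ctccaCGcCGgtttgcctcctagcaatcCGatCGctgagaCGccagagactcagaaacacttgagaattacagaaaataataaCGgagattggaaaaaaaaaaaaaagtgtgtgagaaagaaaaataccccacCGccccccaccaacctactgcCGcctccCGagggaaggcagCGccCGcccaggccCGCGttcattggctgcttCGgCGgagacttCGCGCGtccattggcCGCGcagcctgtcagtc
Foxk2: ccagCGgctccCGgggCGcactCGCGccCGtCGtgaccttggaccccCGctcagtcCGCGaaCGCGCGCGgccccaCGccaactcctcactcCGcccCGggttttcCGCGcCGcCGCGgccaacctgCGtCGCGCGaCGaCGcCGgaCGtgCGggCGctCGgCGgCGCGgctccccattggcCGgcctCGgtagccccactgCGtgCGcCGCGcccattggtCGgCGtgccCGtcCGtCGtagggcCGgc
The Foxk2 window held 48 CG dinucleotides, a number reached by 0.186% of all 32851 start windows of the same length. Foxc1 had 29, Foxo1 20 and Foxd1 12, which 6.78%, 17.9% and 33.5% of all windows reached. The 26 windows of forkhead genes had a median of 19 and a range of 3 to 48, against a median of 6 over all windows. Of the other genes called by limma that had a window, Foxf2, which fell, had 21, and Foxd2, which rose, had 16. The forkhead motif TGTTTAC, searched on both strands, was in 1 of the 26 windows (3.85%), that of Foxa1, and in 3.17% of all windows.

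Levels within the family spanned a wide range in these fibroblasts. Levels of different genes are given as normalised reads per kb of transcript. Foxs1, a gene of perivascular cells and neural crest derivatives, was highest at 938 and 999 normalised reads per kb in the knockout libraries, against 901 and 931 in the wild-type libraries. Foxp4, Foxk2, Foxm1, Foxp1 and Foxc2 followed, with means over all 4 libraries of 514, 429.5, 387, 386 and 345 normalised reads per kb. Foxs1 and Foxp4 did not overlap each other or the next gene in any library, whereas from Foxk2 down to Foxj3 each gene overlapped its neighbour in the range over the 4 libraries. At the other end, Foxr1, Foxe1, Foxp3, Foxh1, Foxa3, Foxa2 and Foxi1 had at most 3 reads in all libraries together. The rank of 1 gene moved far: Foxd1 was number 7 of 36 in the knockout mean, against number 15 of 36 in the wild-type mean. Normalised reads of the whole family summed to 18581 and 19036 in the knockout libraries, against 17262 and 17918 in the wild-type libraries. Of the difference in means of 1218 normalised reads, Foxd1 alone accounted for 582.

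**Figure D2:**
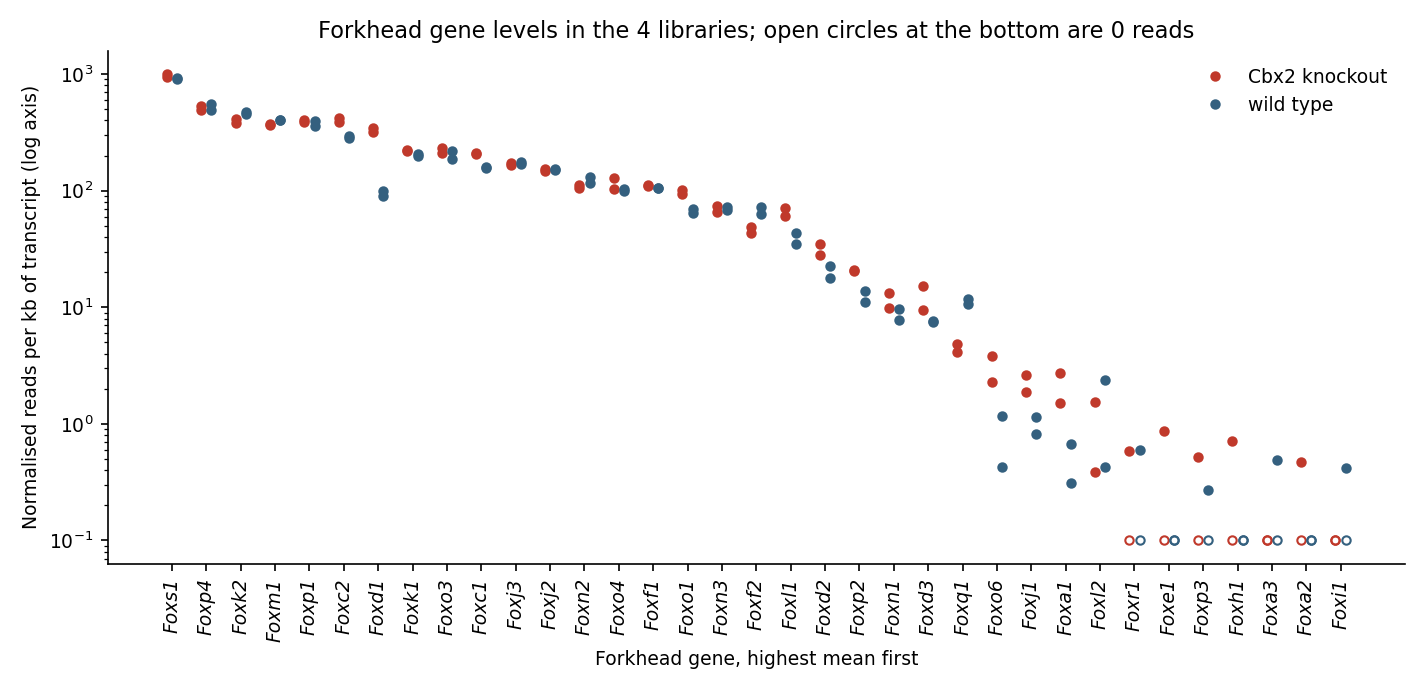
Normalised reads per kb of transcript (vertical axis, log scale) of 35 forkhead genes in each knockout and wild-type library, ordered by the mean over the 4 libraries; open circles at the bottom mark 0 reads. Foxs1 is highest and Foxd1 shows the widest gap between genotypes among the abundant genes.

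Among the genes of embryonic mesenchyme and patterning, Foxd1 changed most. Foxd1 (gene 15229, chr13:98354245-98356705 in GRCm38) marks stromal progenitors of the embryonic kidney and the ventral retina. It had 783 and 844 normalised reads in the knockout libraries, against 243 and 220.2 in the wild-type libraries. Both knockout libraries lay more than 3-fold above either wild-type library. Its mean was 814 ± 43 in knockout and 232 ± 16 in wild type (SD, n = 2 each), a 3.51-fold difference (limma log2 fold change 1.81, SE 0.08, adjusted p = 4.40e-28). It was the 1 forkhead gene both called and changed by 2-fold or more in the authors' deposited comparison (log2 fold change 1.78, adjusted p = 2.57e-41). Of 6 markers of kidney stroma and nephron, 0 rose in the authors' deposited DESeq2 comparison (0 also at an unadjusted p under 0.05) and Wt1 fell. Pax2 and Ren1 among them had 1 read in 1 library each, too few to show a change. Summed, these 6 had 1247 and 1279 normalised reads in the knockout libraries, against 1382 and 1435 in the wild-type libraries.

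Foxc1 and Foxc2, paralogs that act in somite, skull, eye and vessel development, both rose. Foxc2 had 1063 and 1144 normalised reads in the knockout libraries, against 799 and 777 in the wild-type libraries. Foxc1 had 841 and 824 normalised reads in the knockout libraries, against 633 and 628 in the wild-type libraries. For both genes the lower knockout library lay well above the higher wild-type library, and the libraries of each genotype lay close together. The fold was 1.40 for Foxc2 (limma log2 fold change 0.48, SE 0.06, adjusted p = 8.81e-10). It was 1.32 for Foxc1 (limma log2 fold change 0.40, SE 0.06, adjusted p = 1.11e-06). The ratio of Foxc2 to Foxc1 reads was 1.26 and 1.39 in the knockout libraries and 1.26 and 1.24 in the wild-type libraries, so that the balance of the pair moved less than their levels. The rises of both were also called in the authors' deposited DESeq2 comparison (adjusted p = 8.05e-06 for Foxc2 and 0.00195 for Foxc1).

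Foxl1 and Foxd2 were lower in level and rose by a larger factor. Foxl1, which marks mesenchyme under the gut epithelium, had 178 and 210.5 normalised reads in the knockout libraries, against 102 and 128 in the wild-type libraries. Foxd2, a relative of Foxd1 expressed in facial and kidney mesenchyme, had 73.5 and 92.1 normalised reads in the knockout libraries, against 46.7 and 58.8 in the wild-type libraries. Neither gene overlapped between genotypes, but the libraries of a genotype were further apart than in Foxc1 or Foxc2. The fold was 1.68 for Foxl1 (limma log2 fold change 0.75, SE 0.13, adjusted p = 1.04e-05; authors' deposited adjusted p = 0.0150). It was 1.57 for Foxd2 (limma log2 fold change 0.65, SE 0.19, adjusted p = 0.0110), which was not called in the authors' deposited comparison (adjusted p = 0.345). With 3 libraries and at least 10 reads per gene, Foxd2 passed limma only when knockout library A was the one left out. Foxd2os, a transcript beside Foxd2 on chromosome 4, had 42.6 and 37.8 normalised reads in the knockout libraries, against 28.8 and 36.3 in the wild-type libraries, and did not pass (limma adjusted p = 0.484); no source used here says if reads were counted by strand.

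Foxf2 and Foxq1 went the other way. Foxf2, needed in mesenchyme of the gut and palate and in brain pericytes, had 103 and 116 normalised reads in the knockout libraries, against 169.8 and 149.7 in the wild-type libraries. Foxq1 is known from hair shaft and stomach lining, although it was grouped here with the mesenchymal and patterning genes. It had 12 and 14 reads in the knockout libraries, against 30 and 31 in the wild-type libraries. All knockout libraries were below all wild-type libraries in both genes. The fold was 0.688 for Foxf2 (limma log2 fold change -0.54, SE 0.14, adjusted p = 0.00251) and 0.400 for Foxq1 (limma log2 fold change -1.29, SE 0.33, adjusted p = 0.00254). Neither was called in the authors' deposited comparison (adjusted p = 0.187 for Foxf2 and 0.196 for Foxq1). With at least 10 reads per gene and 1 library left out, limma lost the call of Foxf2 without knockout library A (adjusted p = 0.0775) and without wild-type library A (0.112). That of Foxq1 was lost without wild-type library A (adjusted p = 0.0643, limma) and without wild-type library B (0.104).

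Foxf1 and Foxs1 did not pass either test. Foxf1, the regulator of lateral plate and visceral mesenchyme, had 269.9 and 266.7 normalised reads in the knockout libraries, against 256 and 253 in the wild-type libraries (limma log2 fold change 0.07, SE 0.10, adjusted p = 0.719). Foxs1 had a limma log2 fold change of 0.08 (SE 0.05, adjusted p = 0.367). In both genes the knockout libraries were above the wild-type libraries, by 1.05-fold for Foxf1 and 1.06-fold for Foxs1, which is under 2 standard errors.

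**Figure D3:**
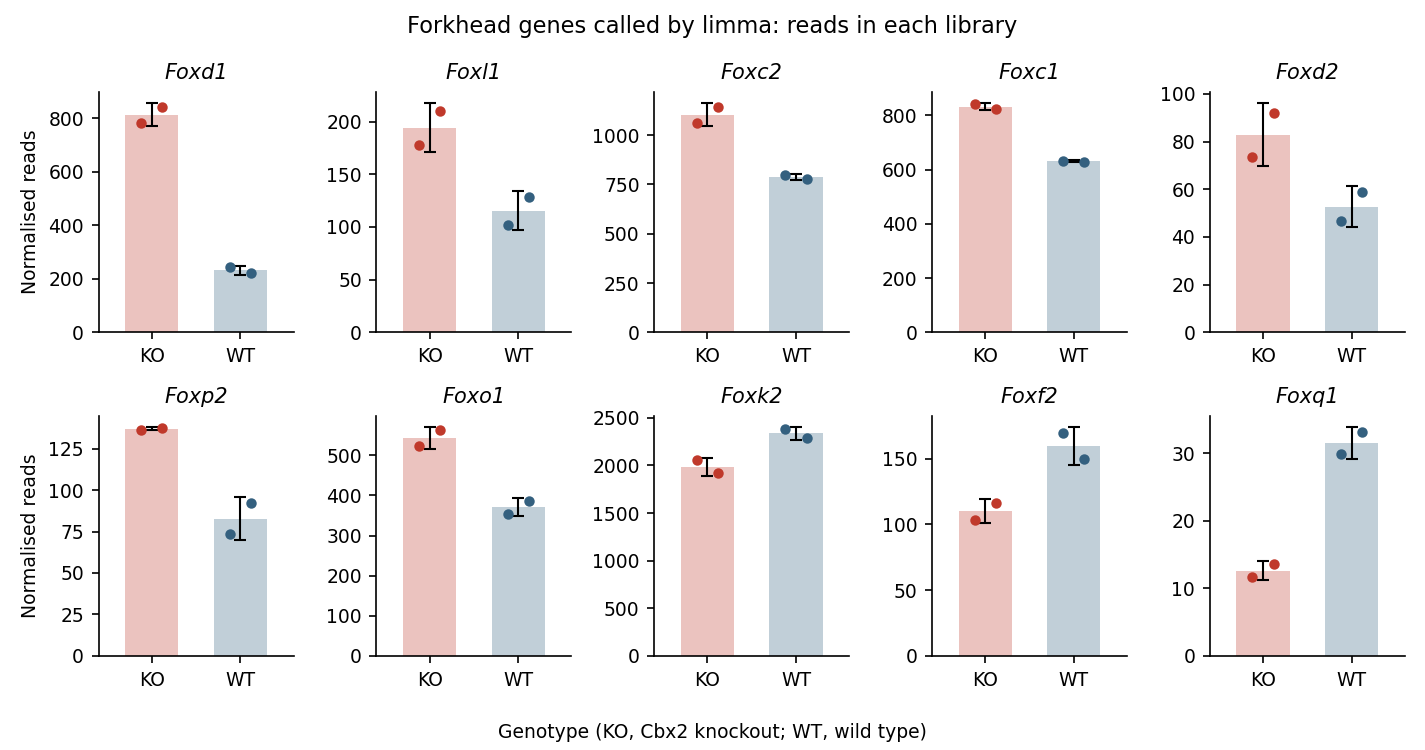
Normalised reads (vertical axis) of the 10 forkhead genes called by limma; points are libraries, bars are means and error bars the SD (n = 2), with knockout left and wild type right. Foxd1 has a mean of 814 in knockout, against 232 in wild type, and Foxk2, Foxf2 and Foxq1 are lower in knockout.

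Neighbouring forkhead genes differed in what they did. On chromosome 8, Foxf1, Foxc2 and Foxl1 lie within one stretch, with 28.0 kb between Foxf1 and Foxc2 and 8.79 kb between Foxc2 and Foxl1 (GRCm38). The ratio of Foxc2 to Foxf1 reads, which no scaling between libraries can alter, was 3.94 and 4.29 in the knockout libraries, against 3.12 and 3.07 in the wild-type libraries. For Foxl1 to Foxf1 it was 0.659 and 0.789 in the knockout libraries, against 0.399 and 0.506 in the wild-type libraries. Both ratios were thus higher in every knockout library, although with 2 against 2 libraries an exact two-sided permutation test cannot go below 0.333. Mthfsd, which lies between Foxf1 and Foxc2, had 316 and 275 normalised reads in the knockout libraries, against 303 and 267 in the wild-type libraries, and did not pass (limma adjusted p = 0.769). Fendrr, the long noncoding RNA beside Foxf1, had 7 and 2 reads in the knockout libraries, against 8 and 4 in the wild-type libraries.

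On chromosome 13, Foxq1, Foxf2 and Foxc1 follow each other, with 64.8 kb between Foxq1 and Foxf2 and 175 kb between Foxf2 and Foxc1. Here the outer genes moved in opposite directions. The ratio of Foxc1 to Foxf2 reads was 8.12 and 7.08 in the knockout libraries, against 3.73 and 4.19 in the wild-type libraries. Foxc1 to Foxq1 was 72.4 and 60.7 in the knockout libraries, against 21.2 and 18.9 in the wild-type libraries. Gmds, the gene beyond Foxc1, had 171 and 158 normalised reads in the knockout libraries, against 186 and 190.3 in the wild-type libraries, and did not pass (limma adjusted p = 0.314). The transcript 1700018A04Rik, between Foxq1 and Foxf2, had 1 read in 1 library of each genotype.

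**Figure D4:**
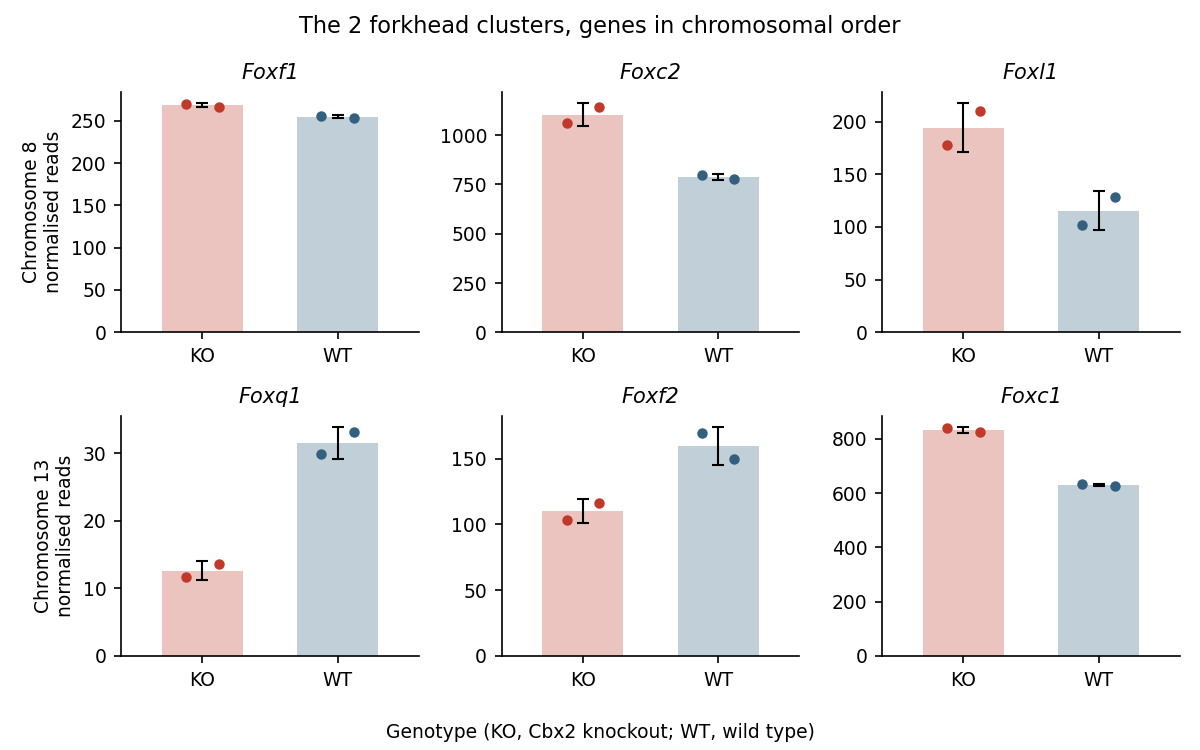
Normalised reads (vertical axis) of the forkhead genes of the chromosome 8 cluster (upper row) and the chromosome 13 cluster (lower row), left to right in chromosomal order; points are libraries, bars means and error bars the SD (n = 2). Foxc2, Foxl1 and Foxc1 are higher in knockout, Foxf1 differs little, and Foxq1 and Foxf2 are lower in knockout.

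Of the FOXO class, which carries insulin and growth factor signals to genes of metabolism, cell cycle arrest and autophagy, Foxo1 rose. Foxo1 (gene 56458, chromosome 3) had 524 and 562 normalised reads in the knockout libraries, against 354 and 386 in the wild-type libraries. Each knockout library was clearly above both wild-type libraries. The means were 543 ± 27 in knockout and 370.2 ± 22 in wild type (SD, n = 2 each), a 1.47-fold difference (limma log2 fold change 0.55, SE 0.08, adjusted p = 9.80e-08; authors' deposited adjusted p = 5.84e-04). Foxo3 had 607 and 673 normalised reads in the knockout libraries, against 538 and 628 in the wild-type libraries, and the genotypes overlapped (limma adjusted p = 0.219). Foxo4 had 408 and 327 normalised reads in the knockout libraries, against 314 and 326 in the wild-type libraries (limma adjusted p = 0.169). Its knockout libraries were the furthest apart of the class, and one of them was level with wild type. Foxo6 had 10 and 6 reads in the knockout libraries, against 3 and 1 in the wild-type libraries, and did not pass (limma adjusted p = 0.0534). The ratio of Foxo1 to Foxo3 reads was 0.863 and 0.836 in the knockout libraries, against 0.659 and 0.615 in the wild-type libraries.

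Genes known as FOXO targets changed in both directions. Of 47 such genes in the table, 8 rose and 3 fell in the authors' deposited comparison (23.4%, against 7.78% of all genes), and the median log2 fold change was 0.14, against 0.0036 over all genes. Rictor, a subunit of mTOR complex 2, had 2548 and 2593 normalised reads in the knockout libraries, against 1464 and 1652 in the wild-type libraries (authors' deposited log2 fold change 0.72, adjusted p = 2.25e-21). Trp53inp1, an autophagy protein that p53 also induces, had a deposited log2 fold change of 0.43 (authors' adjusted p = 1.33e-07). Ccnd1, the cyclin D1 gene that FOXO proteins are known to repress, rose as well (log2 fold change 0.17 in the authors' deposited table). Bnip3, a mitophagy receptor that hypoxia also induces, had 571 and 603 normalised reads in the knockout libraries, against 1020 and 966 in the wild-type libraries (authors' deposited log2 fold change -0.75, adjusted p = 5.13e-12). Txnip, an inhibitor of thioredoxin, and Klf2, a transcription factor of endothelium and lymphocytes, also fell (deposited log2 fold changes -0.34 and -0.40 in the authors' table). With limma on reads, 17 of 45 recovered genes of the list rose and 6 fell, against 9.11% and 8.95% of all recovered genes.

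Among kinases, receptors and cofactors upstream of FOXO, the share called was near that of all genes in the authors' deposited comparison, but not by limma. Of 50 genes, 3 rose and 2 fell in the authors' deposited comparison (10.0%, against 7.78% of all genes), with a median log2 fold change of -0.04. Sgk1, a kinase that phosphorylates FOXO proteins, had 2949 and 2934 normalised reads in the knockout libraries, against 2098 and 2133 in the wild-type libraries (authors' deposited log2 fold change 0.47, adjusted p = 2.92e-13). Irs1, the insulin receptor substrate, and Mdm2, a ubiquitin ligase, were higher (authors' deposited log2 fold changes 0.28 and 0.17). For the growth factor receptor gene Igf1r and the methyltransferase gene Setd7 the authors' deposited log2 fold changes were -0.23 and -0.24. With limma on reads, 6 rose and 8 fell of 46 recovered genes. Both shares were larger than those of all recovered genes, of which 9.11% rose and 8.95% fell. With 10 percent spread added to the deposited errors, 0 of the 5 calls were left.

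Of the 10 forkhead genes grouped as broadly expressed, Foxk2 fell and Foxp2 rose by limma, and the other 8 did not pass. Foxp2 was grouped with Foxp1 and Foxp4, although its mean level was only 16.6 normalised reads per kb. Foxk2 (gene 68837, chr11:121259987-121309900 in GRCm38) encodes a partner of the deubiquitinase BAP1 and, like Foxk1, regulates autophagy and glycolysis genes. It had 2054 and 1918 normalised reads in the knockout libraries, against 2383 and 2289.9 in the wild-type libraries. Both knockout libraries were below both wild-type libraries by a modest margin. The fold was 0.850 (limma log2 fold change -0.24, SE 0.05, adjusted p = 6.49e-05; authors' deposited adjusted p = 0.00858). The call depended on the scaling: without size factors the limma adjusted p was 0.151, and without wild-type library A, with at least 10 reads per gene, it was 0.0509. Foxk1 had 1621 and 1676 normalised reads in the knockout libraries, against 1491 and 1541 in the wild-type libraries (limma log2 fold change 0.12, adjusted p = 0.0826). The ratio of Foxk2 to Foxk1 reads was 1.27 and 1.14 in the knockout libraries, against 1.598 and 1.49 in the wild-type libraries. Foxk2 lies 2.23 Mb from Cbx2 on the same chromosome. Of the other 185 genes within 5 Mb of Cbx2 on either side, 16 were called in the authors' deposited comparison (8.65%, against 7.78% of all genes). Of these, 7 were higher and 9 lower, and of all genes 3.48% were higher and 4.30% lower.

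Foxp2, a repressor best known from brain and lung development, rose at a low level. It had 136 and 138 normalised reads in the knockout libraries, against 73.5 and 91.9 in the wild-type libraries. The knockout libraries were nearly equal and both above wild type. The fold was 1.66 (limma log2 fold change 0.73, SE 0.15, adjusted p = 1.71e-04), while the authors' deposited adjusted p was 0.0621. Its more abundant relatives did not pass. Foxp1 had 2636 and 2737 normalised reads in the knockout libraries, against 2468 and 2681 in the wild-type libraries (limma adjusted p = 0.396), and Foxp4 had 1982 and 2124 in the knockout libraries, against 1961 and 2212 in the wild-type libraries (limma adjusted p = 0.825). Both overlapped between genotypes.

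Foxm1, which drives genes of the G2 and M phases, had 1651 and 1611 normalised reads in the knockout libraries, against 1761 and 1772 in the wild-type libraries. The knockout libraries were lower, by a margin that did not pass (limma log2 fold change -0.12, SE 0.05, adjusted p = 0.0915; authors' deposited adjusted p = 0.532). Of 50 FOXM1 target genes, 0 rose and 4 fell in the authors' deposited DESeq2 comparison (8.0%, against 7.78% of all genes). There, 16 had an unadjusted p under 0.05 (2548 of all 17441 genes), 1 of them higher in knockout, and the median log2 fold change was -0.10. These shares are not matched for level: every gene of this list had a mean deposited value of at least 50, as did 64.9% of all genes. Mki67, the proliferation antigen Ki-67, had 4720.2 and 4696 normalised reads in the knockout libraries, against 5735 and 5719 in the wild-type libraries (authors' deposited log2 fold change -0.28, adjusted p = 6.59e-08). Pttg1, the securin gene, had the largest fall of the 4, with 276 and 271 normalised reads in the knockout libraries, against 458 and 514 in the wild-type libraries (authors' deposited log2 fold change -0.82, adjusted p = 3.53e-07). The cyclin gene Ccna2 and the spindle gene Tpx2 were lower (authors' deposited log2 fold changes -0.25 and -0.17). With limma on reads, 18 of the 50 fell (8.95% of all recovered genes) and 1 rose (9.11% of all recovered genes), Psrc1 (limma log2 fold change 0.21), a microtubule regulator that was named after its value was seen.

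Foxn2, Foxn3, Foxj2 and Foxj3 did not pass either test. Foxn2 came closest, with 569 and 538 normalised reads in the knockout libraries, against 598 and 668 in the wild-type libraries (limma log2 fold change -0.19, SE 0.07, adjusted p = 0.0518). Foxn3, a repressor linked to cell cycle checkpoints, and Foxj2 and Foxj3 had log2 fold changes between -0.03 and -0.01 in limma, and the genotypes overlapped in each. Of 37 cofactor genes of the FOXK, FOXP and FOXN classes, 0 were called in the authors' deposited DESeq2 comparison, against 7.78% of all genes. There, 3 had an unadjusted p under 0.05 (2548 of all 17441 genes). By limma on reads, Kdm1b, Dvl2 and Nfatc1 rose and Gatad2b fell, with log2 fold changes between -0.22 and 0.32; these 4 were named after their values were seen. Bap1, the partner of FOXK2, was not among them.

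The remaining 13 genes define lineages other than fibroblasts, and 0 passed either test. In the authors' deposited comparison 7.78% of all genes passed, and by limma 18.1% of all recovered genes. At an unadjusted p under 0.05 these 13 genes had 0 in the authors' deposited DESeq2 comparison (2548 of all 17441 genes). By limma they had 2, Foxa1 and Foxd3, against 4756 of all 17070 recovered genes. Foxn1 (45 and 33 reads in the knockout libraries, against 32 and 24 in the wild-type libraries), a regulator of thymus and skin epithelium, was among the most abundant of them. Foxd3, of neural crest and pluripotent cells, had 37 and 23 reads in the knockout libraries, against 18 and 17 in the wild-type libraries. In both genes the knockout libraries were the higher ones, and the limma adjusted p was 0.385 for Foxn1 and 0.178 for Foxd3. Foxa1, a pioneer factor of endoderm, had 5 and 9 reads in the knockout libraries, against 1 and 2 in the wild-type libraries (limma adjusted p = 0.0602). Foxj1, the regulator of motile cilia, had 5 and 7 reads in the knockout libraries, against 3 and 2 in the wild-type libraries. Foxl2, of the ovary, had 1 and 4 reads in the knockout libraries, against 6 and 1 in the wild-type libraries, and Foxp3, of regulatory T cells, had 2 and 0 reads in the knockout libraries, against 1 and 0 in the wild-type libraries. Of the markers in the table for these lineages, 0 of 3 ciliated and 0 of 2 T cell markers were called in the authors' deposited DESeq2 comparison (0 at an unadjusted p under 0.05), and of 7 neural markers Nes rose and Map2 fell. At such counts the deposited fold changes are pulled strongly toward 0: for Foxa1 the ratio of normalised reads was 4.33 (log2 2.12), and the log2 fold change in the authors' deposited table was 0.79. For the 7 genes with at most 3 reads in all, a difference between genotypes was not detectable at this depth.

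Signalling and patterning genes that work with the mesenchymal forkhead genes changed in both directions. The list of 46 genes in the table mixes hedgehog, BMP and Notch genes, mesenchymal transcription factors, and others such as Hgf and Itgb3. Of these, 3 rose and 7 fell in the authors' deposited comparison (21.7%, against 7.78% of all genes), with a median log2 fold change of -0.04. Most of the genes called were transcription factors, and the Notch genes Notch1 and Dll4 were not called. Bmp4 had 279.5 and 293 normalised reads in the knockout libraries, against 159.9 and 186 in the wild-type libraries (authors' deposited log2 fold change 0.71, adjusted p = 0.00152). Bmp4 encodes a growth factor of mesenchyme. Hgf, hepatocyte growth factor, had 294 and 269.6 normalised reads in the knockout libraries, against 519 and 624 in the wild-type libraries (authors' deposited log2 fold change -1.002, adjusted p = 9.09e-11). Itgb3, an integrin gene that FOXC2 is known to activate in endothelial cells of the mouse, had 1692 and 1756 normalised reads in the knockout libraries, against 2795 and 2840.5 in the wild-type libraries (authors' deposited log2 fold change -0.71, adjusted p = 2.39e-26). Itgb3 was thus lower in the same libraries in which Foxc2 was higher. Tbx4, a T-box gene of hindlimb and lung mesenchyme, had 83.2 and 74.7 normalised reads in the knockout libraries, against 146 and 172 in the wild-type libraries. Of the paired-related homeobox genes of limb mesenchyme, Prrx2 rose and Prrx1 fell (deposited log2 fold changes 0.26 and -0.19 in the authors' table). With limma on reads, 11 rose and 10 fell of 45 recovered genes, and of all recovered genes 9.11% rose and 8.95% fell.

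**Figure D5:**
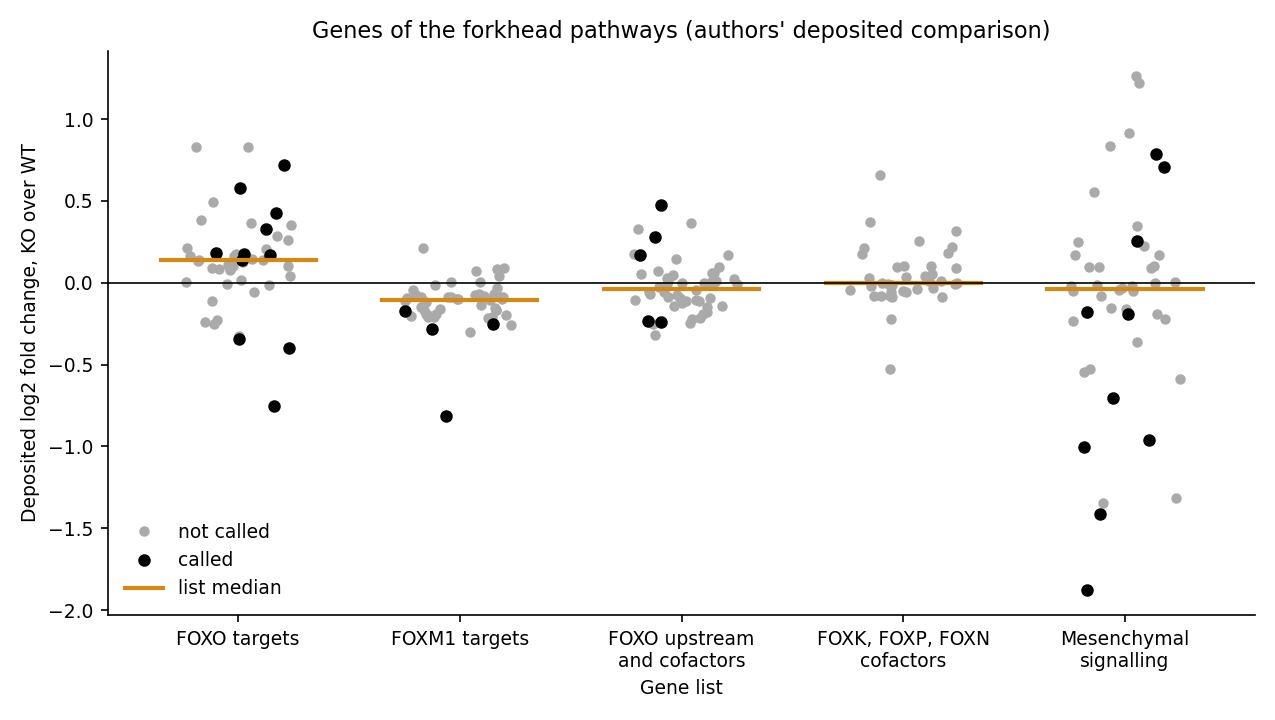
Log2 fold change (knockout over wild type, vertical axis) in the authors' deposited comparison for each gene of the 5 lists along the horizontal axis; black points passed an adjusted p of 0.05 and bars mark the list median. FOXO targets have a median of 0.14 and FOXM1 targets of -0.10, and the calls of the mesenchymal signalling list spread furthest to both sides.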

How the data were processed

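RNA-seq of 2 knockout and 2 wild-type libraries was used, grouped by the genotype in their labels. The submitters' processing notes name Bowtie2, HISAT2, RSEM, DESeq2 and the mm10 build. Their versions and settings were not given in the sources consulted. The 2 expression columns, deposited by the authors, hold a normalised read signal with 1 value per genotype. The log2 fold changes, also deposited, match the log2 ratio of these columns (largest difference 9.13e-09), so that both are shrunken toward no difference where reads are few. The p-values and adjusted p-values deposited by the authors come from their DESeq2 comparison. The standard error behind a deposited fold change was implied from its p.

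The mean of both columns is a sum of whole reads times a step per library (size factors 1.03 and 1.03 in knockout, 1.01 and 0.935 in wild type). A set of whole reads was sought for 17186 genes with a mean up to 10000, and 17070 had exactly 1 set. Of these, 6361 came from the mean alone, searched below a mean of 60. The other 10709 came from the mean with the deposited fold change and p. Whole reads may be rounded estimates. The genes not recovered, 371 in all, held 37.2% of the summed values. Decoys were accepted in 2.0%, 0.0% and 1.0% of cases at means of 5 to 60, 60 to 1000 and 1000 to 3000. In a test on simulated data of knockout versus wild type, 598 of 600 genes were recovered and 0 wrongly.

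Reads divided by size factors were tested with limma 3.58.1 (R 4.3.3; trend and robust) on log2(value + 0.5), with Benjamini-Hochberg adjustment over all 17070 genes. In data simulated over these genes, changes were placed only in genes with a mean above 100. Of these, 99 of 100 changes of 2-fold and 75 of 100 of 1.5-fold were called, with 0 of 16870 unchanged genes. Detection in genes with fewer reads was not simulated. Replicate libraries differed by more than sampling noise, so each was counted. The members and gene lists were chosen with earlier results of these data known. The genes named are Cbx2, the forkhead genes, up to 6 called genes per list by adjusted p, and neighbours within the clusters of called genes. Count models were planned for the case of deposited counts; the table holds none, so the planned limma test was used. No gene set test was run, and the shares over all genes were not matched to the level of the genes in a list. Some genes that this rule takes are not reported here, though they stay in the counts. Positions are from RefSeq GRCm38.p6.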

Additional observations from a re-analysis of the deposited data

How the results depend on the processing

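The count of 6 forkhead genes called in the authors' deposited comparison stayed between 5 and 7 at an adjusted p of 0.01 or 0.1, over genes with a mean of at least 50, centred on the median, and with columns scaled to the same sum. It was 1 with a 2-fold minimum and 1 with 10 percent spread added, Foxd1 in each. With that added spread the lists had 2 FOXO targets, 1 FOXM1 target, 0 FOXO upstream genes and 5 mesenchymal signalling and patterning genes called. The causes were not tested. All calls over the table numbered 1357, against 294 with the 2-fold minimum and 425 with the added spread. Columns scaled to the same sum gave 763 higher and 566 lower genes, against 607 and 750 as deposited, and reads without size factors gave 2090 and 673, against 1555 and 1528.

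The count of 10 by limma was 13 with a pseudocount of 2 (Foxa1, Foxn2 and Foxo6 added), 11 with at least 10 reads (Foxn2 added), 10 with voom and 12 without size factors (Foxa1, Foxk1 and Foxo6 added, Foxk2 lost). Leaving out each library in turn gave 0 to 0 genes, since limma then called 0 of 17070 genes in the whole table (2711 to 3399 had an unadjusted p under 0.05, among them 6 to 8 forkhead genes). Leaving out each library with at least 10 reads per gene, an alternative chosen after seeing the data, gave 6 to 10, with 6 without wild-type library A. Foxc1, Foxc2, Foxd1, Foxl1, Foxo1 and Foxp2 were called in all 4 of these fits. The library left alone in its genotype is assumed to vary like the others. Over single genes, no alternative turned a direction: 109 values kept their side of the threshold, 54 lost it and 6 gained it.

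No paired analysis was possible because the replicate numbers of the libraries could not be tied to the recovered reads, and the deposited values carry none. With 2 libraries per genotype, small differences and genes with few reads remain undecided.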
